A study of Mus musculus with 6 samples.

Results

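The promoters of 50 core spliceosome small nuclear ribonucleoprotein (snRNP) genes were followed through moderate (1% O2) and severe (<0.1% O2) hypoxia by ATACseq, an assay in which the Tn5 transposase cuts accessible DNA. The genes encode the Sm ring, the U1, U2, U5 and U4/U6 particles, the tri-snRNP, the U6 LSm ring, the 3′ splice site reader U2AF, the Prp19 complex and factors of the second step of splicing. They were chosen by name, and a peak was taken as a member's promoter peak when it lay within 2000 bp of one of the gene's start sites in GENCODE M21 (mm10). Of the 50 genes, 49 had such a peak in all 6 libraries, among the 12959 promoter peaks and 28432 peaks of any kind present in every library. The cells were GL261, a mouse glioma line, here stably expressing pEGFP-N1. A pair of libraries each was made from cells held at 21% O2 (normoxia), at 1% O2 for 16 h and at <0.1% O2 for 16 h, and all cells were fixed with formaldehyde before lysis. All 6 libraries therefore share the line, the transgene and the fixation. The labels do not say whether the 2 libraries of a condition came from separate cultures, so p-values measure the spread between these libraries, which may be technical. The libraries were made from bulk cells, in which fewer cells with an open promoter and less cutting per cell cannot be told apart.

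The spliceosome removes introns from pre-mRNA. The U1 particle pairs with the 5′ splice site, U2AF reads the 3′ splice site and helps to place the U2 particle on the branch point, and the tri-snRNP of U4, U6 and U5 then joins. Release of U4 frees U6 to pair with U2 and form the catalytic centre, and the Prp19 complex stabilizes the activated machine. The ring of Sm proteins is shared by the U1, U2, U4 and U5 particles, whereas U6 carries the related LSm ring. These are housekeeping genes whose CpG-rich promoters are open in dividing cells.

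The height of a peak was measured as the summit pileup, the whole number of fragments over its highest base, recovered from the fold and p-value that the peak caller wrote. The lists held 33006 to 43554 peaks. The mean fragment coverage of the genome was taken as the lowest background that the same recovery gave in a library's list. It ran from 2.16 to 3.35, higher in every hypoxic library than in both normoxic ones. Each library was therefore scaled to a common median of 86.5 fragments over the peaks present in all libraries, and every pileup below is such a scaled value unless called raw. A change is on the log2 scale, relative to the median peak of the library. It was tested with limma over all 28432 peaks, with Benjamini-Hochberg adjustment and a threshold of 0.05. Because a scaled pileup is relative, a fall means a loss of height against the other peaks of the same library, and a general loss or gain of accessibility cannot be seen. As a check of the label, 9 of 12 glial and glioma markers, *Sox2*, *Olig2* and *Nes* among them, had a promoter peak in every library, whereas 5 of 8 immune markers, *Ptprc* and *Itgam* included, and 3 of 5 endothelial markers had none in any library, while *Csf1r* of the immune and *Flt1* of the endothelial list had a peak in all 6. Of 5 neuronal markers, 3 had a peak in every library, and of the glial list *Aqp4* and *Sox9* had none.

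RefSeq promoter sequences (build GRCm38.p6, 250 bases before to 50 bases after a start site) were matched for 41 of the 49 members. Those of 5 genes are shown because the results below turn on them. *Prpf38b* (chr3:108911680-108911979, minus strand) and *Lsm8* (chr6:18848385-18848684, plus strand) were among the deepest falls, *Prpf39* (chr12:65036084-65036383, plus strand) differed between the hypoxia levels, and *Snrpd2* (chr7:19149588-19149887, plus strand) and *Snrnp70* (chr7:45395693-45395992, minus strand) were the pair that rose. Capitals mark matches to the 8 words searched on both strands, which were the ETS core CCGGAA, the NRF1 word CATGCGC, the NF-Y box CCAAT, the GC box GGGCGG, the CRE word TGACGT, the YY1 word AAGATGG, the TATA word TATAAA and the hypoxia response core ACGTG.
Prpf38b: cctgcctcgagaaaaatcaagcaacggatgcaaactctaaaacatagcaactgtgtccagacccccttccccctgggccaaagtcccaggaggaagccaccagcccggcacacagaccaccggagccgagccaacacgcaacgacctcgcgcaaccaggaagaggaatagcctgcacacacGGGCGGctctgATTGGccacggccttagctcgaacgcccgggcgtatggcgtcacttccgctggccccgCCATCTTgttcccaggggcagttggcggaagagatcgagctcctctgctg
Lsm8: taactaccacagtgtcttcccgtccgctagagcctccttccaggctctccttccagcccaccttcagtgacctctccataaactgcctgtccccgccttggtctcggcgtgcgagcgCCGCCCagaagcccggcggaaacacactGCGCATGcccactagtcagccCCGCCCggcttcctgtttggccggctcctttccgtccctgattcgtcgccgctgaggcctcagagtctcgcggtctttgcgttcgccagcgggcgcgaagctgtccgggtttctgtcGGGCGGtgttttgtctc
Prpf39: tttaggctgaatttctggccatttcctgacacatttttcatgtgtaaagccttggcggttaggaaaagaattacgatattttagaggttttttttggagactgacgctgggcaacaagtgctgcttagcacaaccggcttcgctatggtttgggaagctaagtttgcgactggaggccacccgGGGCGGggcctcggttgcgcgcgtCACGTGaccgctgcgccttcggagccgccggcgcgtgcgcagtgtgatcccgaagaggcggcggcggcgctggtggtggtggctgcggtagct
Snrpd2: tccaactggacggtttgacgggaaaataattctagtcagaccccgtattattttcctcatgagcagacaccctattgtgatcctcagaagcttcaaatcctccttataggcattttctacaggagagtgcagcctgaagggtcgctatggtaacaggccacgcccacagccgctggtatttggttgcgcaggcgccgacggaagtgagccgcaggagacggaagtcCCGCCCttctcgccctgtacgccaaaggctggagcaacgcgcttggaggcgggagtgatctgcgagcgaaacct
Snrnp70: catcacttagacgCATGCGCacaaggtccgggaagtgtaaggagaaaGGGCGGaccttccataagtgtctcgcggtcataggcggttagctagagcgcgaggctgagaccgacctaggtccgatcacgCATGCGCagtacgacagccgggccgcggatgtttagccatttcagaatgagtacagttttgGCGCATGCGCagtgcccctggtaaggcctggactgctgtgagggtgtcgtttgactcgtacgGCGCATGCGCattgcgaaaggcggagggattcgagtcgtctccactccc

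The *Prpf38b* promoter held a GC box, an inverted CCAAT and, from the start site on, an inverted AAGATGG. *Lsm8* had GC boxes in either orientation and an inverted CATGCGC. *Prpf39* had a GC box and a palindromic CACGTG in which both strands match ACGTG, and *Snrpd2* a single inverted GC box. *Snrnp70* held a GC box and 4 matches to CATGCGC on the plain strand. Of these 4, 2 lay in the palindrome GCGCATGCGC and so matched on both strands. Among the 9135 protein-coding genes with a ranked promoter peak and a RefSeq promoter, which include the members, CCGGAA was found in 53.7% of member promoters and 30.8% of all, and TGACGT in 26.8% of member promoters and 12.9% of all. ACGTG stood in 39.0% of member promoters and 26.6% of all, a word that overlaps TGACGT where TGACGTG occurs. In the 33 matched promoters of other spliceosome genes the shares were 57.6% for CCGGAA, 21.2% for TGACGT and 30.3% for ACGTG. The shares of GGGCGG (63.4% against 68.9%), CCAAT (41.5% against 39.6%), CATGCGC (7.32% against 7.83%), AAGATGG (9.76% against 7.62%) and TATAAA (7.32% against 6.10%) are given in the same order. With CCGGAA, the median change of the 22 member promoters at <0.1% O2 was -0.31 and that of the members without it -0.27, beside -0.33 and -0.18 over all promoters. A match describes the letters of this window and is not a binding site.

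Presence of a peak hardly varied across oxygen. All 49 genes kept their peak in every library, also when the lists were cut to the length of the shortest. Of the 41308 peaks of any kind merged over the conditions, 28432 were present in all 6 libraries. The share among promoters alone is not given, so this count does not set the members apart from other promoters. In 45 of them the summit lay within 250 bp of a start site, with a median distance of 89 bp, and peak lengths ran from 523 to 2420.0 bp. The summits of *Sf3a2* (-251 bp), *Snrpd2* (-336 bp) and *U2af2* (-546 bp) lay further upstream. The farthest was that of *Lsm7*, an LSm ring subunit, whose only peak (chr10:80856202-80858220) reached into the 2000 bp window with its edge, its summit standing at -2355 bp from the nearest start site. Its ratio of observed to expected CpG was 0.163, where the median member had 0.828, so the values given for *Lsm7* are those of an upstream peak. *Sf3b5*, a small subunit of the U2 particle's SF3b module, had no peak within the window of its GENCODE start (chr10, base 13005343). A peak at chr10:13007935-13008882, 2592 bp downstream, covered the start of the RefSeq gene model (base 13008450) and was present in all 6 libraries. Its scaled pileups were 167 and 188 in normoxia, 149.8 and 151 at 1% O2 and 129 and 162 at <0.1% O2 (log2 change at <0.1% O2 -0.29 ± 0.12 (SE), adjusted p = 0.045), and it is not counted among the members.

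In 2 genes a second peak near the start site was listed in some libraries only. At *Lsm4*, which encodes another LSm ring subunit, a peak upstream of the start, with its summit at -1410 or -1404 bp, was listed in all 4 hypoxic libraries and in neither normoxic one. Its raw pileups were 212 and 163 at 1% O2 and 206 and 186 at <0.1% O2, over local backgrounds of 32.8 to 40.7 fragments, where the main peak had raw pileups of 369 to 456 in the same libraries. At *Prpf39* a small peak 1393 or 1401 bp downstream of the start, with raw pileups of 44 and 31, was listed at <0.1% O2. Normoxic replicate 2 instead had a single long peak reaching over both places. The lists hold only peaks past the authors' threshold, and the hypoxic libraries were deeper, so an unlisted peak is not shown to be absent.

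In severe hypoxia the member promoters lost height more often than they gained it. Of the 49, 28 were lower and 2 higher at <0.1% O2, with changes from -1.09 to 0.33 and a median of -0.31. Among all 12959 promoter peaks, 38.5% were lower and 13.8% higher, with a median of -0.19, and among all 28432 peaks 23.9% were lower. Members lower thus made up 57.1% and members higher 4.08%. By library the median member pileup was 136 and 141 in normoxia, 125 and 117 at 1% O2 and 107 and 108 at <0.1% O2. Each member was also set beside the promoter peaks of its own height, those within 5 percentile points of its mean pileup rank (852 to 1797 peaks). At <0.1% O2, 33 of 49 members lay below the median of their band, and over the 49 the median difference from it was -0.11 on the log2 scale. In 25 members all 4 hypoxic libraries lay below both normoxic ones, against 34.8% of promoter peaks, and in 2 all 4 lay above, against 16.5%. The plot of cumulative shares shows the member curve to the left of the promoter curve over most of its range. When genome coverage was used for scaling, which moved every change by -0.17, 22 members were lower and 0 higher, with 34.6% and 2.89% of promoter peaks. With the GC trend of each library subtracted 21 members were lower and 6 higher, with 26.1% and 21.1% of promoter peaks, and without <0.1% O2 replicate 1 17 members (34.7%) were lower, with 29.1% of promoter peaks.

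**Figure D1:**
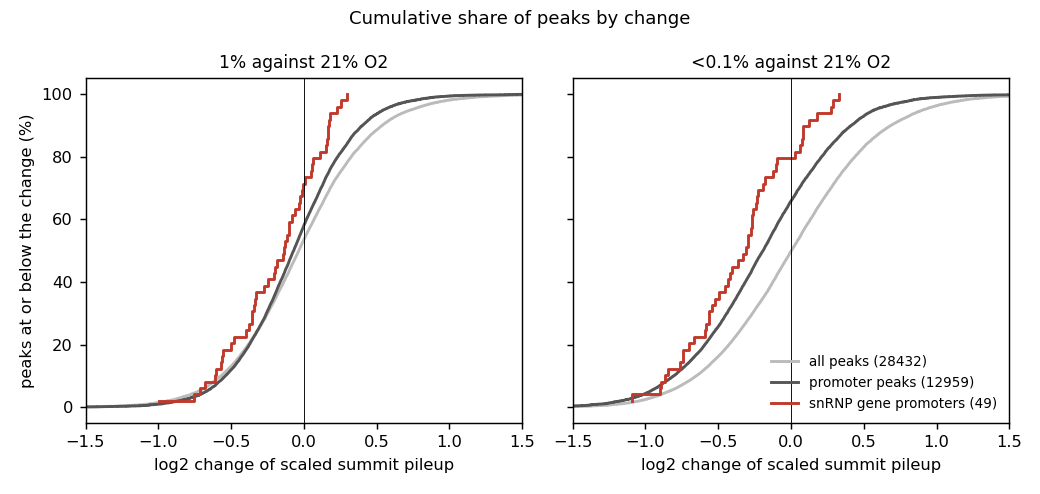
Cumulative share of peaks (percent, vertical axis) at or below a log2 change of scaled summit pileup (horizontal axis), at 1% O2 (left) and <0.1% O2 (right) against 21% O2, for all 28432 peaks, the 12959 promoter peaks and the 49 snRNP gene promoters. At <0.1% O2 the medians are 0.00 for all peaks, -0.19 for promoter peaks and -0.31 for the snRNP genes, and at 1% O2 the snRNP median is -0.13.

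The Sm core, the ring loaded on newly made small nuclear RNA in the cytoplasm, had 6 of 7 promoters lower and 1 higher at <0.1% O2. *Snrpd1* had scaled pileups of 101 and 80.0 in normoxia, 68.9 and 60.0 at 1% O2 and 48.9 and 47.5 at <0.1% O2 (log2 change -0.90 ± 0.17 (SE), adjusted p = 5.9e-05). *Snrpg*, at 121 and 108 in normoxia, 63.3 and 80.3 at 1% O2 and 64.7 and 62.2 at <0.1% O2, fell to 0.556 of its normoxic level (adjusted p = 3.5e-05). Both genes had all hypoxic libraries below both normoxic libraries. The falls of *Snrpb* (-0.49), *Snrpe* (-0.42), *Snrpf* (-0.41) and *Snrpd3* (-0.24) were smaller, with adjusted p from 0.011 to 0.048, none with severe libraries reaching into the normoxic range. *Snrpb* stood at 56.7 and 68.1 in normoxia, 59.3 and 60.0 at 1% O2 and 40.2 and 48.5 at <0.1% O2, and *Snrpe* at 112 and 141 in normoxia, 128 and 117 at 1% O2 and 89.1 and 99.2 at <0.1% O2. In both the 1% O2 libraries overlapped the normoxic ones. *Snrpd3*, the smallest change of the group, stood at 335 and 371 in normoxia, 322 and 328 at 1% O2 and 314 and 285 at <0.1% O2, a fall to 0.848 of normoxia. *Snrpd2* went the other way. Its pileups were 279 and 301 in normoxia, 289 and 289 at 1% O2 and 349.6 and 378 at <0.1% O2 (log2 change 0.33 ± 0.10 (SE), adjusted p = 0.0053), so the severe libraries stood above the other 4. *Snrpd2* shares its promoter with *Qpctl*, which is read in the opposite direction, and its summit lay 336 bp upstream of the nearest *Snrpd2* start, so the peak cannot be given to either gene alone. After the GC trend was subtracted *Snrpb*, *Snrpe*, *Snrpf* and *Snrpd3* lost their calls, leaving *Snrpd1* and *Snrpg* lower, and *Snrpd3* kept its call in 3 of 11 other fits (5 with another scaling or model and 6 with a library left out). The call of *Snrpd2* was lost with coverage scaling, which lowers severe values against normoxic ones, by the log2 fold and without normoxia replicate 1 or <0.1% O2 replicate 2.

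In the U1 particle, which recognizes the 5′ splice site, 1 of 4 promoters was lower and 1 higher at <0.1% O2. *Snrnp70*, the gene of the U1-70K protein, had pileups of 187 and 157 in normoxia, 192 and 196 at 1% O2 and 196 and 223 at <0.1% O2 (log2 change 0.28 ± 0.11 (SE), adjusted p = 0.035), and the lowest severe library stood at 196 against a highest normoxic library of 187. Its call was lost with coverage scaling, by the log2 fold and without normoxia replicate 2 or <0.1% O2 replicate 2. *Prpf39*, a U1-associated factor, fell to 0.614 of normoxia at <0.1% O2 (log2 change -0.70 ± 0.18 (SE), adjusted p = 0.0018). *Snrpc*, the gene of U1-C, moved least, at 73.7 and 76.8 in normoxia, 77.7 and 78.6 at 1% O2 and 75.2 and 83.3 at <0.1% O2 (log2 change 0.07 ± 0.16 (SE), adjusted p = 0.73), with the severe and normoxic libraries overlapping. *Snrpa*, for another U1 protein, had a log2 change of -0.10 (adjusted p = 0.4).

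Of the 10 U2 particle genes with a peak, 6 were lower and 0 higher at <0.1% O2. The largest fall was at *Sf3b4*, a subunit of the SF3b module that holds the branch point, with pileups of 97.9 and 117 in normoxia, 78.5 and 67.1 at 1% O2 and 62.9 and 54.9 at <0.1% O2 (log2 change -0.86 ± 0.16 (SE), adjusted p = 3.6e-05). *Snrpb2*, encoding a U2 RNA-binding protein, fell to 0.630 and *Sf3b1*, the branch point clamp, to 0.695 of normoxia (adjusted p = 0.00069 and 0.00017). At *Sf3b1* the libraries read 204 and 221 in normoxia, 188 and 182 at 1% O2 and 154 and 141 at <0.1% O2, ordered by oxygen without overlap. *Sf3b3* (-0.56), *Sf3a3* (-0.46) and *Sf3a2* (-0.29) were also called. The call was kept in 9 of 11 other fits at *Sf3b3* and in 8 at *Sf3a3*. *Sf3b3* stood at 62.4 and 59.5 in normoxia, 48.1 and 53.0 at 1% O2 and 38.5 and 44.3 at <0.1% O2, and *Sf3a2* at 184 and 190.3 in normoxia, 171 and 169 at 1% O2 and 154 and 152 at <0.1% O2, each with all hypoxic libraries below both normoxic ones, and the call of *Sf3a2* was kept in 4 of 11 other fits. *Sf3b2* moved least, at 108 and 85.4 in normoxia, 121 and 93.6 at 1% O2 and 93.5 and 108 at <0.1% O2 (log2 change 0.06, adjusted p = 0.75), and its groups overlapped. *Sf3a1*, at 97.9 and 94.1 in normoxia, 117 and 118 at 1% O2 and 108 and 124 at <0.1% O2, had every hypoxic library above both normoxic ones and a log2 change of 0.28 that missed the threshold (adjusted p = 0.086).

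U2AF is a dimer, and its large subunit gene *U2af2* had the larger change. *U2af2* stood at 274 and 289.8 in normoxia, 194 and 186 at 1% O2 and 184 and 189.9 at <0.1% O2 (log2 change -0.59 ± 0.10 (SE), adjusted p = 1.5e-05), with all hypoxic libraries below both normoxic ones. *U2af1*, for the small subunit, stood at 136 and 146 in normoxia, 154 and 150.1 at 1% O2 and 121 and 119 at <0.1% O2 and was not called (log2 change -0.23, adjusted p = 0.11). Its normoxic values lay between those at 1% O2 and those at <0.1% O2.

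In the U5 particle, which holds the exons in place, 2 of 5 promoters were lower at <0.1% O2 and 0 higher. *Snrnp200*, encoding the helicase that unwinds U4 from U6, had pileups of 115 and 115 in normoxia, 88.1 and 88.3 at 1% O2 and 71.7 and 65.4 at <0.1% O2 (log2 change -0.75 ± 0.15 (SE), adjusted p = 6.7e-05), the 3 oxygen levels not overlapping. *Prpf6*, which bridges U5 to U4/U6, fell to 0.776 (adjusted p = 0.015), a call kept in 5 of 11 other fits. *Prpf8*, the scaffold of the catalytic centre, moved least, at 140.4 and 179.5 in normoxia, 177 and 180.1 at 1% O2 and 178 and 158 at <0.1% O2 (log2 change 0.08, adjusted p = 0.6). *Eftud2*, the GTPase of the particle, had -0.10 and *Snrnp40* -0.24, neither of them called.

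Among the U4/U6 and tri-snRNP genes, 4 of 6 were lower and 0 higher at <0.1% O2. *Prpf38b* (ENSMUSG00000027881.14), a tri-snRNP-associated gene whose peak lay at chr3:108911102-108912176 over the sequence shown above, had the smallest adjusted p of all members. It stood at 238 and 219.5 in normoxia, 140.2 and 132 at 1% O2 and 107 and 108 at <0.1% O2, a fall to 0.468 of normoxia (log2 change -1.09 ± 0.12 (SE), adjusted p = 1.8e-09), and the groups were far apart beside the gap between replicates. *Prpf31*, which bridges U4/U6 to U5, fell to 0.668 (adjusted p = 0.0023), a call lost only when the log2 fold replaced the pileup. *Prpf38a* (-0.29) and *Prpf4* (-0.28) were called with adjusted p = 0.043 and 0.038, and kept the call in 2 and 4 of 11 other fits. *Snrnp27*, the smallest change, stood at 68.1 and 58.4 in normoxia, 60.9 and 82.1 at 1% O2 and 57.7 and 47.5 at <0.1% O2 (log2 change -0.27, adjusted p = 0.23), the 1% O2 libraries overlapping normoxia and the <0.1% O2 libraries just below it, and *Prpf3*, at 76.6 and 78.9 in normoxia, 79.3 and 83.0 at 1% O2 and 61.2 and 64.4 at <0.1% O2, was not called (log2 change -0.31, adjusted p = 0.11).

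The LSm ring, which binds the 3′ end of U6, divided. *Lsm8*, the subunit that sets the nuclear ring apart, stood at 247 and 304 in normoxia, 192 and 169 at 1% O2 and 159 and 136 at <0.1% O2 (log2 change -0.90 ± 0.12 (SE), adjusted p = 8.6e-08), and *Lsm2* fell to 0.597 of normoxia (adjusted p = 0.00024). *Lsm5* (-0.56) and *Lsm6* (-0.44) were also lower, making 4 of 7 lower and 0 higher. The call of *Lsm5* was kept in 9 of 11 other fits. *Lsm3* (0.13) and *Lsm4* (0.18) were not called, nor was the upstream peak of *Lsm7*, at 245 and 270.4 in normoxia, 273 and 237 at 1% O2 and 271 and 274 at <0.1% O2 (log2 change 0.08, adjusted p = 0.53). After the GC trend was subtracted, *Lsm3* (0.31, adjusted p = 0.035) and *Lsm4* (0.26, adjusted p = 0.022) were called higher. *Lsm4* had the highest mean pileup rank of all members, 96.7, and its libraries read 366 and 332 in normoxia, 316 and 334 at 1% O2 and 398 and 389 at <0.1% O2.

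In the Prp19 complex 3 of 6 were lower and 0 higher at <0.1% O2. *Crnkl1*, a scaffold of the activated spliceosome, had pileups of 184 and 171 in normoxia, 113 and 120.1 at 1% O2 and 103 and 107 at <0.1% O2 (log2 change -0.76 ± 0.12 (SE), adjusted p = 4.3e-06). *Bcas2* (-0.54) and *Prpf19* itself (-0.33), the ubiquitin ligase, were called as well, and kept the call in 8 and 5 of 11 other fits. *Xab2* stood at 109 and 104 in normoxia, 111 and 103 at 1% O2 and 103 and 92.8 at <0.1% O2, a log2 change of -0.12 that was not called (adjusted p = 0.48), and *Cdc5l* (-0.26) and *Plrg1* (-0.18) also missed the threshold. The pair of genes for the second step differed from each other. *Slu7* (ENSMUSG00000020409.10), which helps to select the 3′ splice site, had the lowest mean rank of all members and, just beyond *Prpf38b*, the largest change, with its peak at chr11:43433634-43434165. Its pileups were 68.1 and 69.2 in normoxia, 33.6 and 35.3 at 1% O2 and 30.6 and 33.8 at <0.1% O2 (log2 change -1.09 ± 0.20 (SE), adjusted p = 3.5e-05), and its raw pileups of 48, 64, 42, 40, 35 and 32 in the same order rest on few fragments. *Cdc40* stood at 226 and 267 in normoxia, 266 and 284 at 1% O2 and 229 and 273 at <0.1% O2 with overlapping groups (log2 change 0.03, adjusted p = 0.85).

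**Figure D2:**
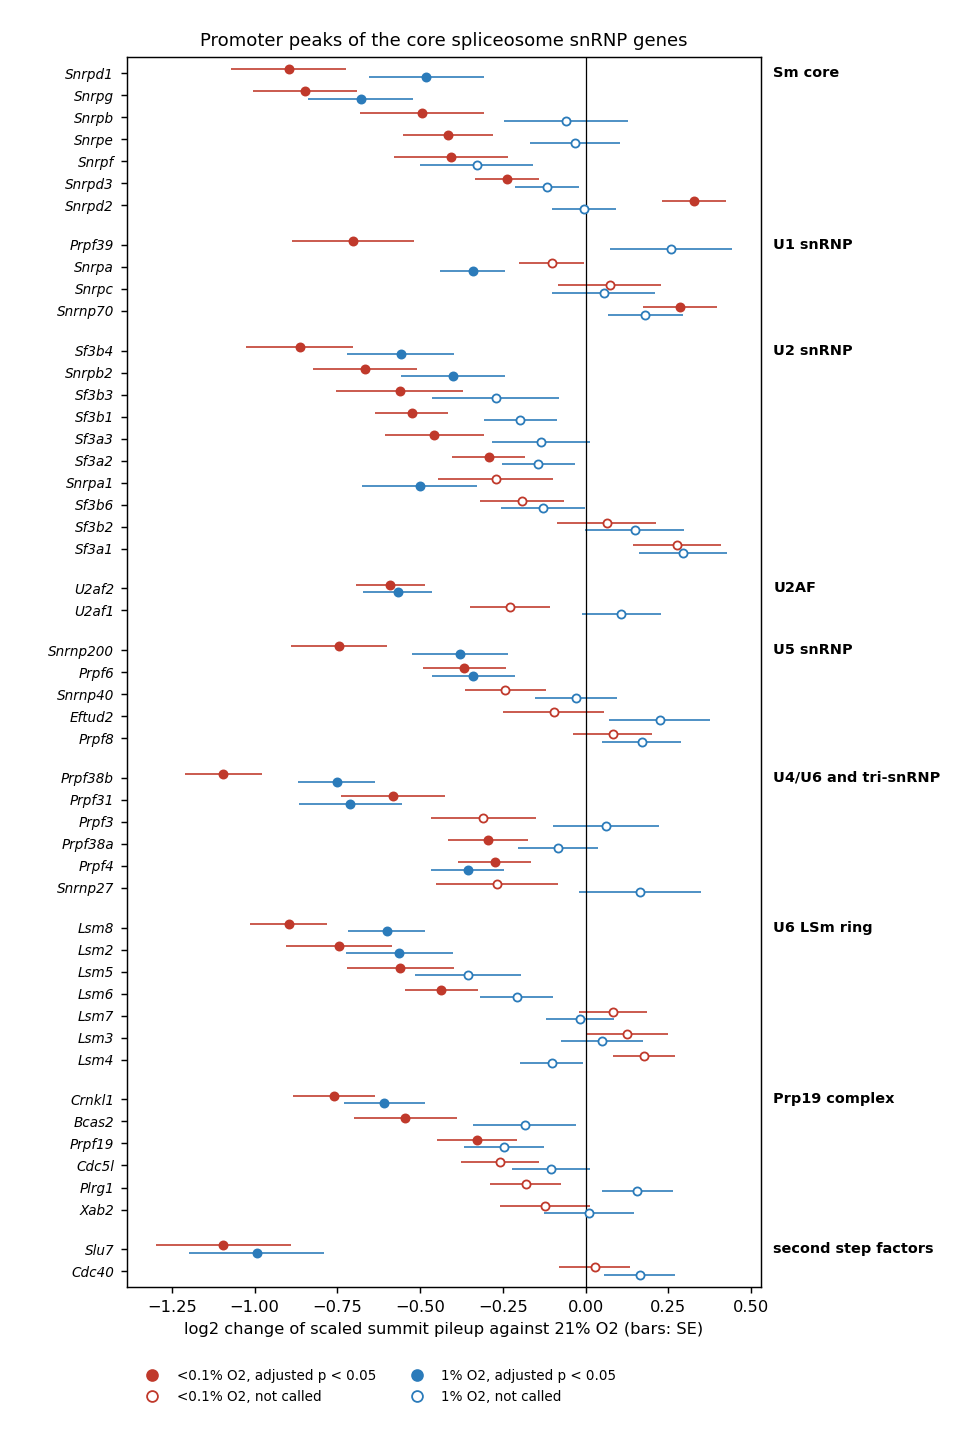
Log2 change of scaled summit pileup against 21% O2 for each of the 49 snRNP gene promoters (horizontal axis, bars are SE), grouped by role, at <0.1% O2 (red) and 1% O2 (blue). Filled points passed an adjusted p of 0.05. At <0.1% O2, 28 filled points lie left of 0 and 2, *Snrpd2* and *Snrnp70*, right of it, and at 1% O2 all 16 filled points lie left.

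**Figure D3:**
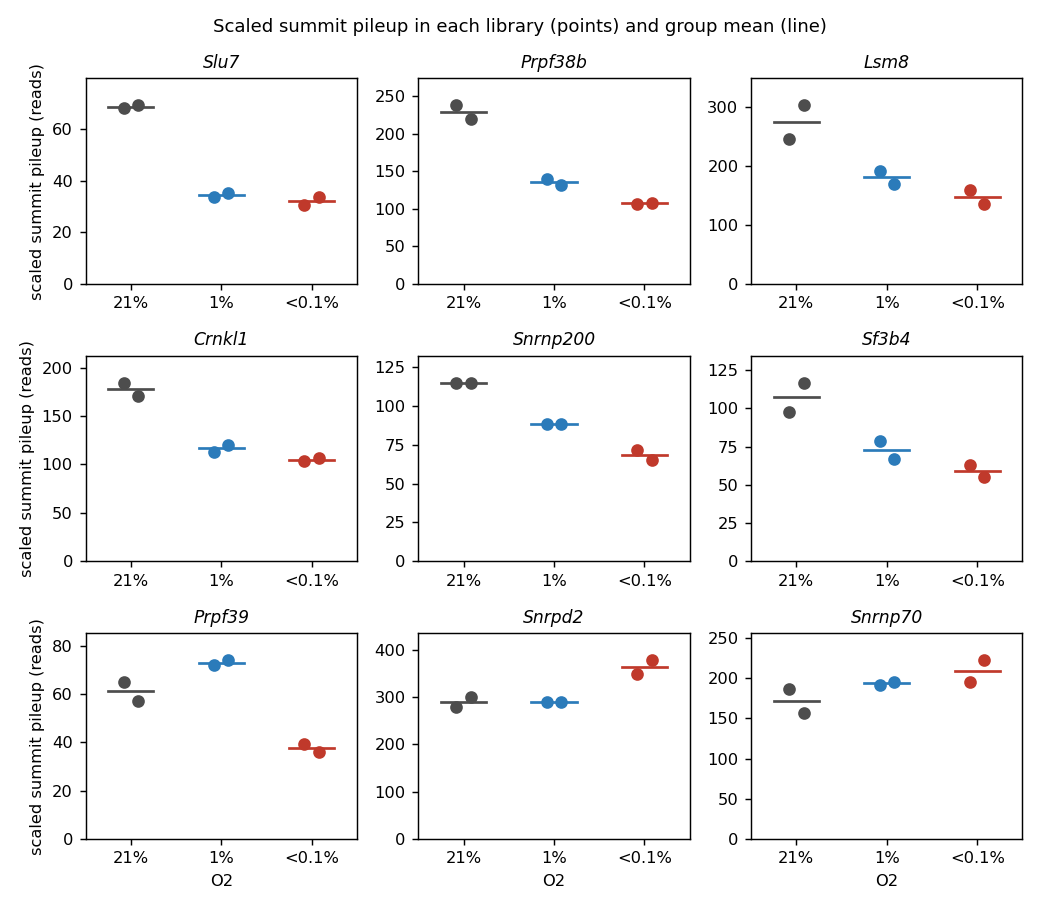
Scaled summit pileup (fragments, vertical axes from 0) of 9 snRNP gene promoters in each of the 6 libraries (points) with the mean of each oxygen level (line). *Slu7* runs from 68.1 and 69.2 at 21% O2 to 30.6 and 33.8 at <0.1% O2, *Prpf39* is highest at 1% O2, and *Snrpd2* and *Snrnp70* are highest at <0.1% O2.

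In moderate hypoxia fewer members moved. At 1% O2, 16 of 49 promoters were lower and 0 higher, with a median change of -0.13, beside 22% lower, 12.9% higher and a median of -0.07 over all promoter peaks and 20.3% lower over all peaks. Of the members 29 lay below the median of their height band, with a median difference of -0.08. The 2 comparisons share the normoxic libraries, so their calls are not independent. The clearest at 1% O2 were *Prpf38b* (log2 change -0.75, adjusted p = 3.8e-06), *U2af2* (-0.57, adjusted p = 4.4e-05), *Lsm8* (-0.60, adjusted p = 9.8e-05), *Crnkl1* (-0.61, adjusted p = 0.00018) and *Slu7* (-0.99, adjusted p = 0.00021). By role, 2 of 7 Sm, 1 of 4 U1, 3 of 10 U2, 1 of 2 U2AF, 2 of 5 U5, 3 of 6 tri-snRNP, 2 of 7 LSm, 1 of 6 Prp19 and 1 of 2 genes of the second step were lower. Also lower at 1% O2 were *Prpf31* (-0.71), *Snrpg* (-0.68), *Lsm2* (-0.56), *Sf3b4* (-0.56), *Snrpd1* (-0.48), *Snrpb2* (-0.40), *Snrnp200* (-0.38), *Prpf4* (-0.36) and *Prpf6* (-0.34). Of these, *Snrpb2* kept the call at 1% O2 in 2 of 11 other fits, *Snrnp200* in 4, *Prpf4* in 5, and *Prpf6* and *Snrpd1* in 6 each. *Slu7* thus stood at 0.502 of normoxia at 1% O2 and 0.468 at <0.1% O2. *Snrpa* (-0.34, adjusted p = 0.0058) and *Snrpa1*, a U2 gene (-0.50, adjusted p = 0.022), were called lower at 1% O2 and not at <0.1% O2, where their changes were -0.10 and -0.27. Tested directly, <0.1% against 1% O2 was not called in either gene (adjusted p = 0.072 and 0.36). The count at 1% O2 depended on the scaling. With genome coverage, which moved every change by 0.17, the members' median was 0.03 and 2 were lower, *Prpf38b* and *Slu7*, while 3.18% of promoter peaks were lower and 9.03% higher. Quantile normalization gave 12 members lower and 2 higher, with 17.9% and 17.1% of promoter peaks, and 8 were lower without 1% O2 replicate 2, 9 without 1% O2 replicate 1 and 10 without normoxia replicate 2, with 12.8%, 14.3% and 15.5% of promoter peaks.

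Set directly against 1% O2, severe hypoxia had 6 members lower and 2 higher, with a median change of -0.16. Over all promoter peaks 18.5% were lower and 4.97% higher, with a median of -0.13, and 9.99% of all peaks were lower, beside 12.2% of members. *Prpf39* differed most. It stood higher at 1% O2 than in normoxia in both libraries and lower than normoxia in both libraries at <0.1% O2, with pileups of 65.2 and 57.3 in normoxia, 72.1 and 74.2 at 1% O2 and 39.3 and 35.9 at <0.1% O2 and a difference between the hypoxia levels of -0.96 ± 0.18 (SE, adjusted p = 0.0002), while its change at 1% O2 alone was not called (log2 change 0.26, adjusted p = 0.28). The other members lower at <0.1% than at 1% O2 were *Snrpe*, *Sf3b1*, *U2af1*, *Prpf38b* and *Plrg1*, and those higher were *Snrpd2* and *Lsm4*. With coverage scaling 19 members were lower and 0 higher, 38.8% of members lower beside 33.9% lower and 0.201% higher of promoter peaks. Quantile normalization gave 9 and 1, beside 23.5% and 4.20%, and the GC trend subtracted 1 and 3, beside 3.79% and 7.34%, *Prpf39* being lower in each, so the member counts moved with those of promoters at large. Without any 1 of the 4 hypoxic libraries 1 member was lower, beside 7.95% to 11.6% of promoter peaks, and without normoxia replicates 1 or 2, 9 or 11, beside 23.4% each.

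The fold rank gave a second view of the same peaks. It is the percentile, within a library, of a peak's fold over local background among the 28432 peaks present in all libraries. A call here needed a shift of the mean rank by 10 points or more, with the 2 hypoxic libraries on the same side of the normoxic pair and no overlap. No p-value goes with this rule, since an exact permutation test of 2 against 2 libraries cannot go below 0.33. At <0.1% O2, 16 members were lower and 3 higher in fold rank, beside 26.5% lower and 12% higher of all promoter peaks. At 1% O2, 6 were lower and 10 higher, beside 16.5% and 11.9%, where by pileup 0 were higher. This balance at 1% O2 depended on the rank used, with 14 lower and 2 higher by ranks of -log10 q and 13 and 1 by ranks of pileup, and on single libraries, with 12 lower and 10 higher without normoxia replicate 2, 11 and 12 without 1% O2 replicate 1, and 7 and 6 without 1% O2 replicate 2. Shares of promoter peaks are not given for these other counts, so they do not set the members apart from promoters at large. *Slu7* had the largest fall at both levels, with fold ranks of 85.8 and 90.2 in normoxia, 45.9 and 42.5 at 1% O2 and 29.5 and 31.3 at <0.1% O2. At <0.1% O2 the fold rank of *Snrnp200* fell by 33.1 points, that of *Lsm2* fell by 32.1 and that of *Prpf38b* fell by 28.8. *Prpf39* had the largest gain in fold rank at 1% O2, with ranks of 50.2 and 48.3 in normoxia, 77.8 and 70.1 at 1% O2 and 33.8 and 18.6 at <0.1% O2. The other members higher in fold rank at 1% O2 were *Snrnp27* (15.2 points), *Sf3b3* (14.6), *Snrpe* (14.5), *Snrnp70* (13.9), *Snrpb* (13.2), *Sf3a2* (12.5), *Snrpc* (11.6), *Prpf3* (10.5) and *Sf3a1* (10.5), and those higher at <0.1% O2 were *Lsm7* (16.6), *Sf3a2* (14.8) and *Sf3a1* (13.7).

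The measures parted at some promoters. At <0.1% O2, 13 members were called lower by both, and 6 of the 28 called lower by pileup had a fold rank that moved up, beside 19.8% and 4.93% of promoter peaks, *Sf3a2* by 14.8 points and *U2af2* by 3.83 among them. Of the 4985 promoter peaks called lower by pileup, 51.4% were lower in fold rank and 12.8% had it move up. *Sf3b2* had the reverse, a fold rank change of -20.2 points with a pileup change of 0.06. The fold divides the pileup by a local background that itself holds fragments of the peak. For the median member this background was 3.23 and 3.47 times the genome coverage in normoxia, 3.18 and 2.84 times at 1% O2 and 2.70 and 2.33 times at <0.1% O2, so at <0.1% O2 it was lower than in normoxia, and its part in the difference between the measures was not tested. When limma was run on the log2 fold, 5 members were lower and 0 higher at <0.1% O2, beside 9.55% of promoter peaks, and the 5 were *Sf3b1*, *Snrnp200*, *Prpf38b*, *Lsm2* and *Slu7*.

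**Figure D4:**
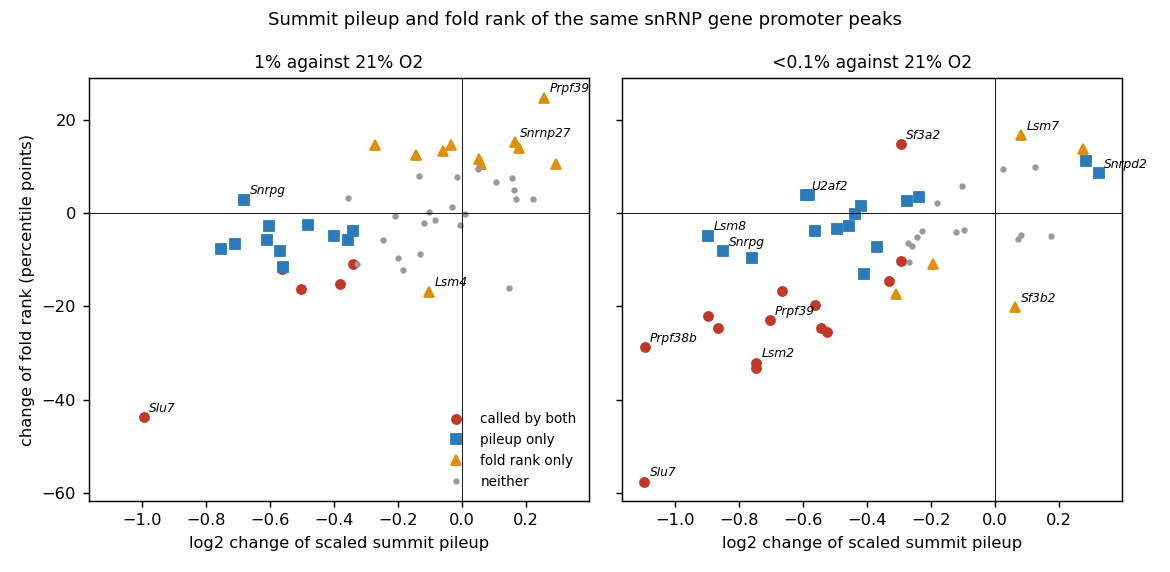
Change of fold rank (percentile points, vertical axis) against log2 change of scaled summit pileup (horizontal axis) for the 49 snRNP gene promoters, at 1% O2 (left) and <0.1% O2 (right) against 21% O2, with red circles for members called by both measures, blue squares by pileup only, orange triangles by fold rank only and grey points by neither. *Slu7* stands at the lower left of both panels, at -43.8 and -57.6 points, and *Sf3a2* at <0.1% O2 is called by both measures in opposite directions.

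Among members the lower peaks had the deeper changes. The 17 members with a mean pileup rank at or below 50 had a median change of -0.56 at <0.1% O2, and 12 of them were lower, whereas the 32 above 50 had a median of -0.25, with 16 lower. For all promoter peaks the medians were -0.23 and -0.18, with 34.0% and 41.0% lower. Across the 49 members Spearman's rho between the change and the mean rank was 0.49, against 0.09 across promoter peaks. The mean rank includes the hypoxic libraries and all points share the same 6 libraries, so these are descriptions. GC content of member peaks ran from 51.4% to 66.3% and had a rho of 0.09 with the change, where promoter peaks at large had -0.29. After the GC trend was subtracted, the members' median was -0.26 and that of promoter peaks -0.05. Start sites of another gene on the opposite strand lay within 1000 bp in 26 members, as *Sf3a1* with *Ccdc157* and *Prpf31* with *Tfpt*. As at *Snrpd2*, such a peak is not shown to belong to the member alone. Of those 26, 14 were lower, with a median of -0.28, and of the other 23 also 14, with a median of -0.44. The same split of all promoter peaks is not given, so no trait of the members is read from it.

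Neighbouring gene sets give the members a scale. Of 50 peaks of other spliceosome genes, 24 were lower and 5 higher at <0.1% O2 (median -0.32), and 14 lower and 5 higher at 1% O2 (median -0.14). The largest falls in that set were at *Txnl4a*, a small U5 protein (-1.07 ± 0.11 (SE), adjusted p = 5.1e-10), *Ppwd1*, a cyclophilin (-1.06, adjusted p = 5.6e-07), and *Rbm22*, which binds U6 (-0.92, adjusted p = 2.1e-07). Of 40 SR and hnRNP genes, which steer splice site choice, 23 were lower and 1 higher at <0.1% O2 (median -0.44). Of 75 peaks of cytosolic ribosomal protein genes, 60 were lower and 3 higher (median -0.59), and at 1% O2 45 were lower and 2 higher (median -0.45). By pileup, the member share of 57.1% lower at <0.1% O2 thus lay between the 38.5% of all promoter peaks and the 80.0% of ribosomal protein genes. It was close to the 57.5% of SR and hnRNP genes. The order was another by fold rank. There 16 of 49 members were lower and 3 higher at <0.1% O2, beside 26.5% and 12% of all promoter peaks. Of other spliceosome genes 11 were lower and 4 higher, of SR and hnRNP genes 3 and 9, and of ribosomal protein genes 7 and 20. At 1% O2 these counts were 6 and 10 for members and 2 and 26 for ribosomal protein genes. These lists and the members were chosen by name, and no difference between them was tested.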

How the data were processed

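ATACseq peak lists of 6 GL261 libraries were analysed, 2 at each of 21%, 1% and <0.1% O2, grouped by their labels. Per the submitters' processing notes, reads were trimmed with Trimmomatic and aligned to mm10 with Bowtie2 2.2.5, and peaks were called with MACS2 2.1.1.2. The study's methods add that duplicate and mitochondrial reads were removed, that peaks were called on paired fragments and that blacklisted regions were filtered. The lists are per library. As deposited they give each peak's fold over local background (a ratio), its -log10 p-value, and its -log10 q-value. Read totals are not in the lists, so depth is given as genome coverage, taken as the lowest background recovered in each list.

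From the fold and p-value the whole-number summit pileup was recovered for 100% of peaks (tolerance 0.01 in -log10 p). Stretches over 200 bp shared by both replicates of a condition were merged over conditions into 41308 consensus peaks, of which 28432 were present in all 6 libraries. Main results are limma fits (limma 3.58.1, R 4.3.3) of the median-centred log2 pileups with trended variance and 3 groups of 2. The limma and recovery steps were tested on simulated data. Alternatives were coverage scaling, quantile normalization, the log2 fold, a GC correction (lowess, fraction 0.3), a replicate block, each library left out, a 500 bp window, an overlap of 1 bp, a -log10 q of at least 10, the peak nearest to a start site, other ranks, rank changes of 5 and 20 points, and equal list lengths. Named genes are the largest and smallest change in each of 9 roles, members called higher, the member lacking a peak, and 5 members lower at both levels. Members named beyond these were chosen after their values were seen. The members and lists were chosen with earlier results of these data known. Gene symbols came from GENCODE M21 and promoter sequences from RefSeq. No RefSeq promoter was matched for *Slu7*, *Sf3b4*, *U2af2*, *Snrpb*, *Snrpd1*, *Eftud2*, *Snrnp40* and *Lsm4*. Other tools were samtools 1.23.1, pysam 0.24.0, statsmodels 0.14.6, scipy 1.17.1, pandas 2.3.3, numpy 2.4.6 and Python 3.11.15.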

Additional observations from a re-analysis of the deposited data

Results flagged for a closer look

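In 8 of 49 member promoters the responses to the 2 hypoxia levels differed, by limma's test of <0.1% against 1% O2 over all 28432 peaks. Among all promoter peaks 18.5% were lower and 4.97% higher in this comparison, beside 12.2% and 4.08% of members. *Prpf39* had the largest difference, -0.96 on the log2 scale (adjusted p = 0.0002), with its severe libraries at 39.3 and 35.9 and its moderate ones at 72.1 and 74.2. It was -1.04 to -0.90 with any library left out. *Snrpe* (-0.38, adjusted p = 0.037), *Prpf38b* (-0.34, adjusted p = 0.03), *Plrg1* (-0.34, adjusted p = 0.02), *U2af1* (-0.34, adjusted p = 0.038) and *Sf3b1* (-0.33, adjusted p = 0.028) were also lower at <0.1% than at 1% O2. *Snrpd2* (0.33, adjusted p = 0.011) and *Lsm4* (0.28, adjusted p = 0.028) were higher. Except *Prpf39*, which kept its call throughout, these members lost their calls when single libraries were left out, *Snrpd2* in 3 of 6 cases and the other 6 in 4 of 6 each. In *U2af1* and *Plrg1* the 1% O2 libraries lay above both normoxic libraries and the <0.1% O2 libraries below both, although neither change against normoxia was called. With 2 libraries per condition no group is large enough for a test of single outlying libraries.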

How the results depend on the processing

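With the pileup measure, coverage scaling gave 0 members higher at <0.1% O2 and a median of -0.47, 2 lower and a median of 0.0321 at 1% O2, and 19 lower and 0 higher between the hypoxia levels. The log2 fold gave 5 lower, 0 higher and a median of -0.11 at <0.1% O2, 1 lower and a median of -0.0377 at 1% O2, and 1 lower and 0 higher between the levels. The GC correction gave 6 higher and a median of -0.26 at <0.1% O2 and 1 lower between the levels. The 6 were *Snrpd2*, *Snrnp70*, *Sf3a1*, *Lsm3*, *Lsm4* and *Cdc40*. Quantile normalization gave 2 higher and a median of -0.0754 at 1% O2 and 1 higher between the levels, and the stricter q threshold 1 higher at 1% O2. The promoter window of 500 bp (48 members, *Lsm7* dropping out), the overlap of 1 bp and the peak nearest to a start site moved no call by pileup. The fold rank counts at <0.1% O2 were 10 lower and 0 higher with a change of 20 points, 7 higher with 5 points, 1 higher by ranks of -log10 q or of pileup, and 5 higher under the stricter q or ranks within whole lists. At 1% O2 they were 14 lower and 2 higher by -log10 q, 13 and 1 by pileup rank, 1 lower within whole lists, 14 lower with 5 points and 1 lower and 1 higher with 20 points. No shares of promoter peaks are given beside the fold rank counts of this section, so they describe the members only.

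Without single libraries, the pileup counts ran from 17 to 26 lower and 0 to 2 higher at <0.1% O2, 8 to 15 and 0 to 2 at 1% O2 and 1 to 11 and 0 to 3 between the levels. The medians ran from -0.37 to -0.28 at <0.1% O2 and from -0.21 to -0.12 at 1% O2. Those of promoter peaks ran from -0.24 to -0.17 and from -0.10 to -0.04. Fold rank counts ran from 16 to 20 lower and 3 to 6 higher at <0.1% O2, and 6 to 12 and 6 to 12 at 1% O2, and 49 members kept a peak throughout. A condition left with 1 library was assumed to vary like the others.

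Signs of the 49 changes turned in 6, 12 and 10 members under coverage scaling (which moves all changes by -0.165, 0.167 and -0.332), in 13, 10 and 9 by the log2 fold, in 6, 3 and 12 after GC correction and in 0, 5 and 0 with quantile normalization, at <0.1% O2, at 1% O2 and between the levels. Under coverage scaling *Snrpc* (-0.0923), *Sf3b2* (-0.101), *Prpf8* (-0.0838), *Lsm7* (-0.0832) and *Cdc40* (-0.138), with *Lsm3* (-0.0396), turned at <0.1% O2, and among the members called between the levels *Snrpd2* (-0.00135) and *Lsm4* (-0.0527). By the log2 fold at <0.1% O2 *Snrpd3* (0.0605), *Snrpc* (-0.0939), *Sf3b2* (-0.280), *U2af2* (0.0764), *Prpf8* (-0.127), *Sf3a2* (0.207) and *Snrpe* (0.0260) turned, as did *Snrpa* (0.0859), *Lsm4* (-0.0709), *Plrg1* (0.0370), *Prpf31* (0.0794), *Prpf4* (0.0486) and *Lsm6* (0.0122). After GC correction, also at <0.1% O2, *Snrpd3* (0.00910), *Snrpc* (-0.00682), *U2af1* (0.0925), *Sf3a2* (0.00547), *Eftud2* (0.0314) and *Snrnp40* (0.000877) did, of which *Snrpd3* and *Sf3a2* had been called lower. With libraries left out, *Snrpc* ran from -0.00260 to 0.147, *Sf3b2* from -0.104 to 0.193, *Prpf8* from -0.135 to 0.258, *Lsm7* from -0.0271 to 0.152 and *Cdc40* from -0.134 to 0.155. Of the 28 lower calls at <0.1% O2, 15 were kept in every scaling, the block and every set with a library left out, other than the log2 fold, and of the 16 at 1% O2, 2. The causes were not tested. The kept share of all promoter peaks called lower is not given, so these counts do not set the members apart from promoters at large.

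The shared replicate numbers were checked for pairing. The differences between replicates 1 and 2 correlated by -0.0506, -0.0130 and 0.00786 between conditions, so no shared replicate pattern was seen. This cannot show whether libraries of the same number were made together. A replicate block left 28 lower and 2 higher at <0.1% O2, 16 and 0 at 1% O2 and 6 and 2 between the levels, with medians of -0.31 and -0.13.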

Other observations

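Other gene sets around the snRNPs give further values, by pileup unless fold rank is named. Their backdrop is all promoter peaks, of which at <0.1% O2 38.5% were lower and 13.8% higher (median change -0.19), and 22% lower and 12.9% higher at 1% O2 (median change -0.07). Of 15 snRNP assembly genes, which load the Sm ring and import the particles, 10 were lower and 1 higher at <0.1% O2 (median -0.50), and at 1% O2 3 were lower and 1 higher. Of 11 peaks of minor spliceosome genes, whose products remove the rare introns of the minor class, 2 were lower and 1 higher at <0.1% O2 (median -0.17), and at 1% O2 2 lower and 0 higher. SR and hnRNP genes at 1% O2 had 17 of 40 lower and 0 higher (median -0.22). By fold rank 2 of them were lower and 10 higher at 1% O2, beside 16.5% and 11.9% of promoter peaks. Of 13 peaks of genes known to be induced by hypoxia, 3 were lower and 3 higher at <0.1% O2 (median -0.06), with changes from -0.55 to 0.93, and 1 lower and 4 higher at 1% O2. No list was tested against another.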
